A study of Homo sapiens with 6 samples.

Results

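The clustered replication-dependent histone genes of HEY cells were examined upon PQBP1 knockdown. These genes were taken as every row of the gene table with a name that starts with HIST1H, HIST2H, HIST3H or HIST4H, without the names ending in PS that mark pseudogenes (7 rows). This gave 68 genes of the 32679 in the table. HEY is an ovarian cancer cell line, and PQBP1 is a splicing factor that binds polyglutamine tracts. The 3 shNC samples carried a control hairpin and received no treatment. The 3 shPQBP1 samples carried a hairpin against PQBP1 and received doxycycline at 1 µg/ml, and all 6 samples were labelled day 3. By the labels, the hairpin and doxycycline differed together between the groups, so their effects cannot be told apart. The series describes biological triplicates, but which cultures they came from, and whether shPQBP1 is 1 clone, is not given in the sources used here.

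Replication-dependent histone genes encode the H2A, H2B, H3 and H4 proteins of the nucleosome core and the linker histone H1, and cells transcribe them mainly in S phase, when new DNA has to be packaged. Their genes lie in clusters, have as a rule no introns, and often stand in head-to-head pairs with a promoter region between them. Their mRNAs normally end just after a conserved stem-loop that the protein SLBP binds, and carry no poly(A) tail. Replication-independent variants such as H3.3 and H2A.Z are encoded elsewhere, by genes that give polyadenylated mRNAs throughout the cell cycle. The sequenced libraries were made from poly(A) RNA, so the values below count only those histone transcripts that were recovered in that fraction.

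Of the 68 genes, 50 lie on chromosome 6 (the HIST1 genes), 17 on chromosome 1 (14 HIST2 and 3 HIST3 genes) and 1 on chromosome 12 (HIST4H4). By the encoded histone, 6 are H1 genes, 15 H2A genes, 19 H2B genes, 14 H3 genes and 14 H4 genes. The annotation calls 65 of them protein-coding and 3 pseudogenes (HIST2H2BA, HIST2H2BB and HIST2H2BD). Of these 3, only HIST2H2BD had a level high enough to be tested below, where it is counted with the H2B genes. In all 68, the canonical transcript of GENCODE release 44 (hg38) has a single exon. The stem-loop was looked for in hg38 within 300 bases after each stop codon, as 16 bases that open with GG and close with CC, with arms of 6 bases that pair (G with T allowed), a loop of 4 bases, and TT at positions 8 and 9. It was found in 63 of the 65 coding genes, all but HIST1H2BI and HIST1H3E, at 22 to 67 bases (median 35) after the stop codon. Only 6 different sequences occurred among the 63, and the most frequent was shared by 37 genes. The stem-loops of the genes that the results below turn on are shown with 5 genomic bases on each side, 5′ to 3′ on the gene's strand and with the stem-loop in capitals, because they define this gene class.
HIST1H1C (chr6:26055744-26055759, minus strand): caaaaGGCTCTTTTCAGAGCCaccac
HIST1H2AC (chr6:26124669-26124684, plus strand): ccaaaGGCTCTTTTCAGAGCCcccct
HIST1H3D (chr6:26196789-26196804, minus strand): ccaaaGGCTCTTTTCAGAGCCaacca
HIST1H2BD (chr6:26158587-26158602, plus strand): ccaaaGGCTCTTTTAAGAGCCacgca
HIST1H2BK (chr6:27146366-27146381, minus strand): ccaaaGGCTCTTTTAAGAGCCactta
HIST1H4H (chr6:26285131-26285146, minus strand): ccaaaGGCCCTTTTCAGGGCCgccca
HIST2H4A (chr1:149833032-149833047, plus strand): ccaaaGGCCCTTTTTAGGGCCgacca
The coordinates are those of the capitals. HIST1H1C, HIST1H2AC and HIST1H3D carry the most frequent form. The form of HIST1H2BD and HIST1H2BK occurred in 10 genes, that of HIST1H4H in another 10, and that of HIST2H4A in 4.

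Expression was measured as FPKM, in which the fragments of a gene are divided by its transcript length and by the mapped fragments of the sample. The summed FPKM of all genes lay between 294970.3 and 318484 in shNC and between 278286 and 287423 in shPQBP1, and Pearson's r over genes, on the log2 scale, was lowest for shNC sample 1 (0.926 to 0.955 against the other samples). How many reads stand behind a value is unknown. PQBP1 itself had an FPKM of 7.18, 6.67 and 6.93 in shNC and 1.68, 1.72 and 1.44 in shPQBP1 (log2 fold change -2.04, SE 0.10, limma adjusted p = 0.00154). As a check of the label, the epithelial keratin KRT18 had a mean FPKM of 85.5 and the mesenchymal VIM one of 1235, EPCAM was at 0.948, the leukocyte marker PTPRC was listed at 0 in every sample, and ALB, a hepatocyte gene, lay at 0.03 or lower. The endothelial marker PECAM1 was at 0.23 to 0.25 in shNC and at 0.02 to 0.06 in shPQBP1, and its part in the results was not tested.

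Histone transcripts made up a small part of the poly(A) RNA, and their sum was higher upon PQBP1 knockdown. The summed FPKM of the 68 genes was 411.57, 332.55 and 385.54 in shNC and 476.43, 492.88 and 428.47 in shPQBP1. Every shPQBP1 sample lay above every shNC sample, with a ratio of the means of 1.24 (376.6 ± 40.3 against 465.9 ± 33.5, SD, n = 3 each; two-sided exact permutation test, p = 0.1, which is the lowest value possible with 3 samples against 3). As a share of the FPKM of all genes, this was 0.123% ± 0.00889 in shNC and 0.165% ± 0.00937 in shPQBP1 (SD, n = 3 each), again without overlap. Without HIST1H2BK, the gene with the highest level, the sums were 277.51, 221.57 and 265.49 in shNC and 308.23, 315.67 and 278.76 in shPQBP1. The groups then barely missed overlapping, since shNC sample 1 and shPQBP1 sample 3 lay next to each other. These sums still hold HIST1H1C, the next highest gene, with 47.12 in shNC sample 3 and 73.54 in shPQBP1 sample 3. That gap is wider than the gap between the sums of these 2 samples. Without both genes the groups thus overlap, so the separation of the sums rests on HIST1H2BK and HIST1H1C. In bulk samples such as these, a different share of cells in S phase and a different amount of RNA per cell cannot be told apart. The sums cover poly(A) RNA only, so a different polyadenylated share of the histone transcripts cannot be told apart from these either.

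The sums of each class were compared in turn, without a test between classes. The H1 genes summed to 59.72, 47.91 and 50.19 in shNC and to 79.53, 91.28 and 75.55 in shPQBP1, a ratio of means of 1.56. For the H2B genes the sums were 184.77, 158.86 and 174.25 against 232.6, 241.24 and 207.05, a ratio of 1.31. HIST1H1C made up 96.0% of the H1 sum in shNC and 96.9% in shPQBP1, and HIST1H2BK 70.5% and 72.7% of the H2B sum, so these are largely the values of single genes. In both classes, all shPQBP1 samples were above all shNC samples (two-sided exact permutation test, p = 0.1 for each). The H2A genes summed to 89.0 ± 13.5 and 88.7 ± 5.46 (SD, n = 3 each) with overlapping groups, and the H4 genes to 49.7 ± 9.03 and 56.2 ± 4.21 (SD, n = 3 each), also overlapping. The H3 sums were small and close together, at 12.21, 12.85 and 13.06 in shNC and 11.97, 11.97 and 11.91 in shPQBP1. They did not overlap, with the shPQBP1 samples lower by a ratio of 0.940 (two-sided exact permutation test, p = 0.1). HIST1H3D alone had 6.07, 5.59 and 6.34 in shNC and 3.99, 5.42 and 4.28 in shPQBP1. Its mean fell by more than that of the H3 sum, so the other H3 genes together were not lower on average. The lower H3 sum thus rests on HIST1H3D, whose values are uncertain because of shared sequence, as described below. These 5 class sums were each compared once, and none can pass a threshold of 0.05 in a permutation test of this size.

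**Figure D1:**
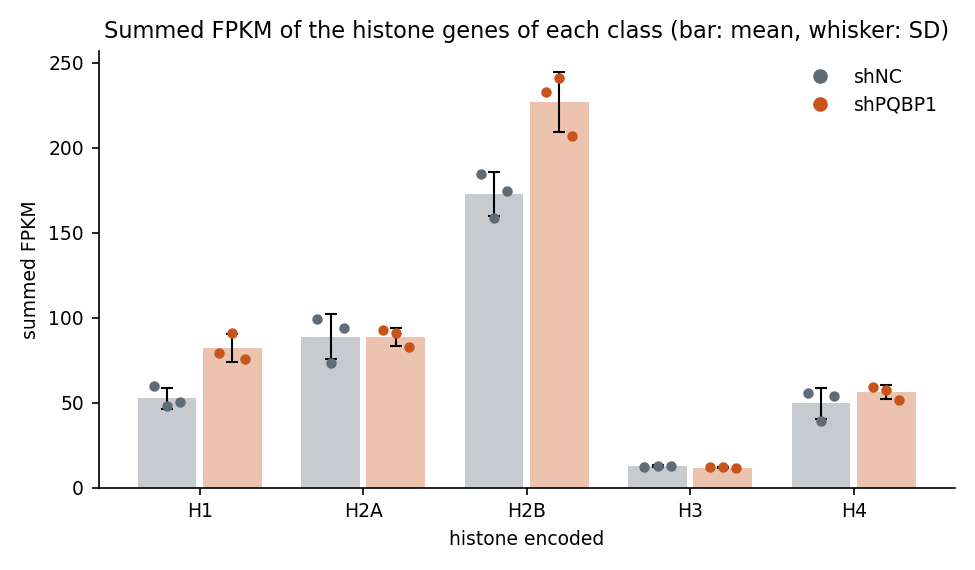
Summed FPKM of the genes of each histone class (x axis) in the 3 shNC samples (grey) and the 3 shPQBP1 samples (orange), with bars at the mean, whiskers of 1 SD and a point for each sample. The H1 and H2B points of shPQBP1 lie above all shNC points (H1 75.55 to 91.28 against 47.91 to 59.72), while those of H2A and H4 overlap.

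The histone signal was concentrated in few genes. HIST1H2BK, an H2B gene, held 34.0% of the summed histone FPKM, HIST1H1C, which encodes linker histone H1.2, held 15.4%, and the 8 genes with the highest level held 80.1% together. Of the 68 genes, 26 reached a mean of 1 FPKM across the 6 samples and were tested, namely 2 of 6 H1, 7 of 15 H2A, 8 of 19 H2B, 2 of 14 H3 and 7 of 14 H4 genes. The other 42 lay below that level, 23 of them listed at 0 in at least 1 sample, and HIST1H4F was listed at 0 in all 6. Tests were run on log2(FPKM + 0.1) over all 11413 genes that reached this level, with limma and Benjamini-Hochberg adjustment over all of them. Fold changes are on that scale, where the change of a gene with low FPKM is understated.

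Among the 26 tested genes, 3 passed an adjusted p of 0.05, all higher in shPQBP1, namely HIST1H2BD, HIST1H2AC and HIST1H1C. This is 11.5% of the 26, where 2.91% of all genes tested were called in either direction and 1.73% were called higher. At an unadjusted p under 0.05, 7 histone genes were higher (26.9%, against 11.9% of all genes) and 1 was lower (3.85%, against 11.7%). No histone gene had a fold change over 2 together with an unadjusted p under 0.05, a threshold that 1.52% of all genes passed. The shPQBP1 samples lay entirely above the shNC samples in 9 of the 26 genes (34.6%, against 17.3% of all genes) and entirely below in 2 (7.69%, against 17.1%). By sign alone 18 were higher (69.2%, against 52.8% of all genes) and 8 lower (30.8%, against 47.2%). The median log2 fold change was 0.19, against 0.02 for all genes tested, and single genes ranged from -0.40 to 0.86. Genes of this class share sequence and lie side by side, so the 26 values are not independent of each other.

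**Figure D2:**
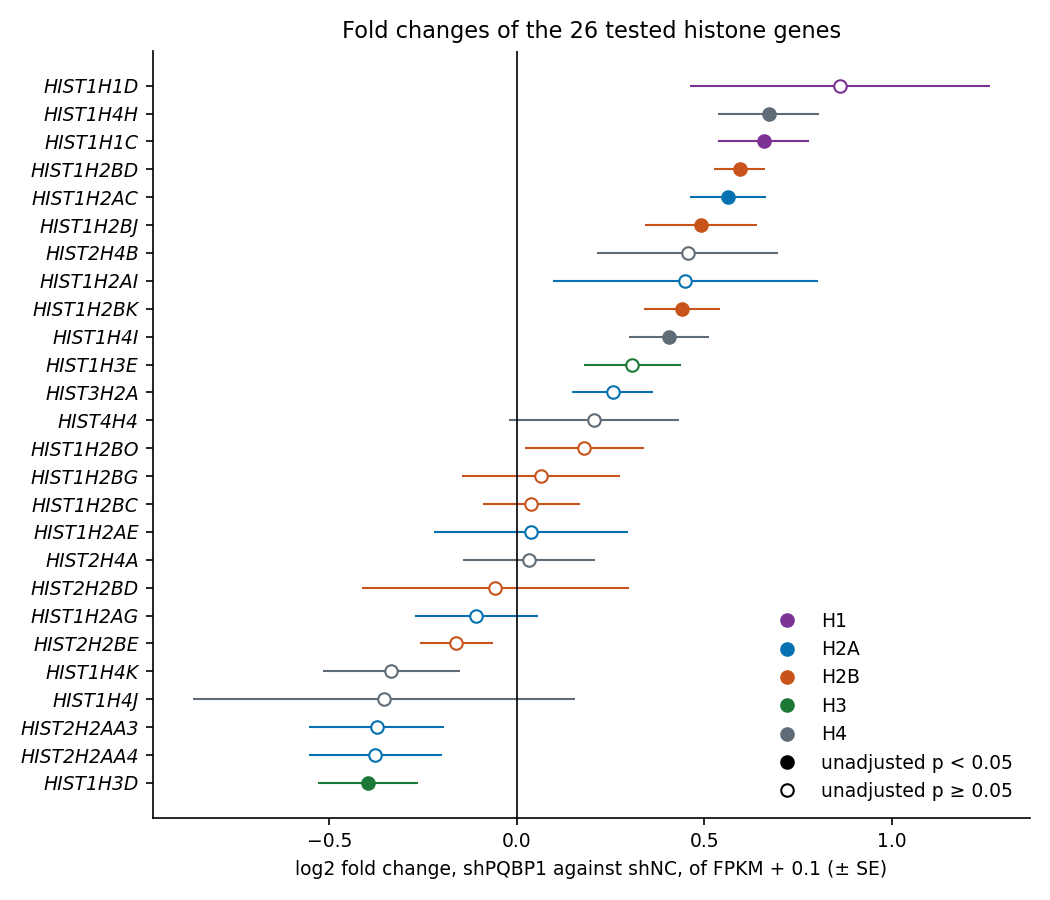
Log2 fold change (x axis, shPQBP1 against shNC, of FPKM + 0.1) of each of the 26 tested histone genes, with whiskers of 1 standard error from limma, colours for the encoded histone, and filled points for an unadjusted p under 0.05. The filled points are 7 genes to the right of 0 and HIST1H3D to the left at -0.40. HIST1H1D has the highest estimate at 0.86, with a standard error of 0.40.

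The linker histone gene HIST1H1C (ENSG00000187837, chromosome 6 from 26055740 to 26056470, minus strand) had an FPKM of 58.26, 46.10 and 47.12 in shNC and 76.74, 88.38 and 73.54 in shPQBP1. The groups were apart, and the log2 fold change was 0.66 (SE 0.12, limma adjusted p = 0.0499). HIST1H1D, the only other H1 gene tested, encodes H1.3 and was near the lower limit, with a mean of 0.853 ± 0.458 in shNC and 1.56 ± 0.469 in shPQBP1 (SD, n = 3 each). Its groups overlapped, and its log2 fold change of 0.86 (SE 0.40) did not pass the test (limma adjusted p = 0.248). The other 4 H1 genes lay under the filter. H1 binds the linker DNA between nucleosomes.

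HIST1H2AC (ENSG00000180573, chromosome 6 from 26124145 to 26139116, plus strand) encodes an H2A of the nucleosome core. Its FPKM was 24.51, 21.23 and 26.82 in shNC and 35.48, 34.45 and 37.01 in shPQBP1, without overlap (log2 fold change 0.56, SE 0.10, limma adjusted p = 0.0477). The other highly expressed H2A genes, HIST2H2AA3 and HIST2H2AA4, are near-identical copies on chromosome 1. All the 50-base words of the HIST2H2AA3 transcript occur in HIST2H2AA4, so their reads cannot be assigned with certainty and the values of both are best read together. Their sum was 63.26, 43.18 and 56.54 in shNC and 44.95, 45.59 and 34.42 in shPQBP1. The groups overlapped, with a log2 difference of the means of -0.38. Singly, HIST2H2AA3 had 27.5 ± 5.15 and 21.2 ± 3.27 (SD, n = 3 each; log2 fold change -0.37, limma adjusted p = 0.260) and HIST2H2AA4 had 26.8 ± 5.07 and 20.5 ± 3.00 (SD, n = 3 each; log2 fold change -0.38, limma adjusted p = 0.251). Thus the near equal H2A sums of both groups contained a gene that was higher upon knockdown and a pair of copies with lower means.

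Among the H2B genes, HIST1H2BD (ENSG00000158373, chromosome 6 from 26158122 to 26171349, plus strand) had the smallest p of all histone genes tested. Its FPKM was 13.22, 13.22 and 14.01 in shNC and 20.64, 20.29 and 20.28 in shPQBP1 (log2 fold change 0.59, SE 0.07, limma adjusted p = 0.0170). The replicates of each group were close together and far from the other group. HIST1H2BK (ENSG00000197903, chromosome 6 from 27146361 to 27146855, minus strand) was at 134.06, 110.98 and 120.05 against 168.20, 177.21 and 149.71. It did not overlap either, but passed the test only without adjustment (log2 fold change 0.44, SE 0.10, limma adjusted p = 0.0759). Of its 50-base words, 57.2% also occur in other genes. HIST1H2BJ had 7.94, 6.36 and 9.21 against 10.55, 12 and 10.34 (log2 fold change 0.49, SE 0.15, limma adjusted p = 0.131). The other 5 tested H2B genes lay between -0.16 and 0.18, and none of them passed an unadjusted p of 0.05.

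The H4 genes HIST1H4H and HIST1H4I were higher at an unadjusted p only. HIST1H4H had 3.63, 4.05 and 5.10 in shNC and 6.94, 6.80 and 6.61 in shPQBP1 (log2 fold change 0.67, SE 0.13, limma adjusted p = 0.0568). HIST1H4I had 3.08, 3.17 and 2.69 against 4.04, 4.22 and 3.68 (log2 fold change 0.41, SE 0.11, limma adjusted p = 0.0996). In both, all shPQBP1 samples were above all shNC samples. The H4 genes with the highest level were the copies HIST2H4A and HIST2H4B on chromosome 1, which share all their 50-base words. Singly, HIST2H4A was at 18.66, 12.41 and 19.26 against 17.14, 17.16 and 16.26, and HIST2H4B at 19.22, 10.08 and 15.73 against 21.85, 20.90 and 17.34 (log2 fold changes 0.03 and 0.46, limma adjusted p = 0.919 and 0.293). Their sum of 37.88, 22.49 and 34.99 against 38.99, 38.06 and 33.6 overlapped between the groups. The split of reads between these copies differed between the groups without overlap (log2 of HIST2H4A over HIST2H4B -0.04, 0.30 and 0.29 in shNC and -0.35, -0.28 and -0.09 in shPQBP1), although their annotated canonical transcripts do not tell the copies apart.

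Of the H3 genes 2 of 14 passed the filter, the lowest share of the 5 classes (14.3%). HIST1H3D had 6.07, 5.59 and 6.34 in shNC and 3.99, 5.42 and 4.28 in shPQBP1, and was the only 1 of the 26 tested histone genes that was lower at an unadjusted p under 0.05 (log2 fold change -0.40, SE 0.13, limma adjusted p = 0.152). Another gene annotated on the same strand overlaps it and holds 96.5% of its 50-base words, so the values of HIST1H3D are uncertain. HIST1H3E, 1 of the 2 coding genes in which no stem-loop was found, had 2.41 ± 0.305 in shNC and 3.00 ± 0.242 in shPQBP1 (SD, n = 3 each), with groups that did not overlap (log2 fold change 0.31, limma adjusted p = 0.214). The near-identical HIST2H3A and HIST2H3C lay just under the filter, with a sum of 1.85 ± 0.0814 in shNC and 2.05 ± 0.129 in shPQBP1 (SD, n = 3 each).

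**Figure D3:**
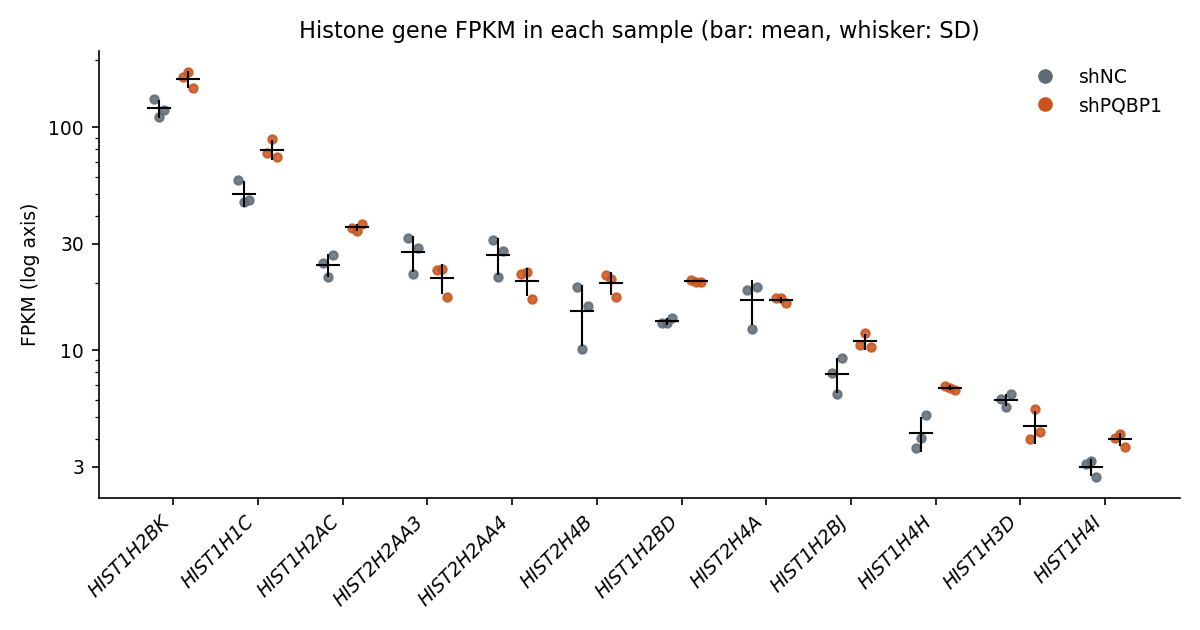
FPKM (y axis, log scale) of 12 histone genes in each shNC sample (grey) and each shPQBP1 sample (orange), with a line at the mean and whiskers of 1 SD. They are the 8 genes with the highest level and all genes at an unadjusted p under 0.05. HIST1H2BK stands highest at 110.98 to 177.21, and the groups overlap in the HIST2 genes only.

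With 3 samples a group, the calls depended on single samples. HIST1H2BD kept an adjusted p under 0.05 without shNC sample 1 only (0.0165), and lost it without any of the other 5 samples, with adjusted p-values from 0.0622 to 0.0998. HIST1H1C likewise kept its call without shNC sample 1 (0.0241) and lost it without each of the others (0.112 to 0.163). HIST1H2AC lost its call without any 1 of the 6 samples (0.0607 to 0.176). The estimates moved little in these fits, between 0.58 and 0.62 for HIST1H2BD, 0.47 and 0.64 for HIST1H2AC, and 0.58 and 0.77 for HIST1H1C.

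Base composition moved with the fold changes in these libraries. Over the 11387 tested genes with a GENCODE transcript, log2 fold change and GC content had a Spearman rho of -0.459, a description across genes that share their libraries. GC-rich genes thus tended to lower values in shPQBP1. The tested histone genes had a median GC content of 58.5%, against 47.5% for all tested genes, and a median transcript length of 491 bases, against 2980. After the trend on GC content and length was removed from each sample, the median log2 fold change of all genes was 0.03. That of the histone genes was 0.40 in place of 0.19. The share of all genes called in that fit is not given here. Of the histone genes, 6 in place of 3 passed an adjusted p of 0.05. These 6 were HIST1H2BD, HIST1H2AC and HIST1H1C together with HIST1H2BK (0.64, limma adjusted p = 0.00783), HIST1H4I (0.63, limma adjusted p = 0.0391) and HIST1H2BJ (0.66, limma adjusted p = 0.0485). The estimate of HIST1H3D shrank to -0.20 (limma adjusted p = 0.387), and those of HIST2H2AA3 and HIST2H2AA4 to -0.14 each.

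Most histone genes were at very low levels in this poly(A) RNA. Of the 42 genes under the filter, the groups overlapped in 35, the shPQBP1 samples were all higher in 4 and all lower in 3. The shares among all genes under the filter are not given here, so these counts have no background to be read against. The 4 with the highest level were HIST2H3A, HIST2H3C, HIST1H3H and HIST1H2BH, with means of 0.978, 0.975, 0.973 and 0.890. HIST1H2BH, an H2B gene, had an FPKM of 0.52, 0.53 and 0.52 in shNC and 1.18, 1.42 and 1.17 in shPQBP1. In a fit over every gene above 0 in at least 1 sample, its log2 fold change was 1.12 (limma adjusted p = 0.0564). HIST1H4C, picked here after its values were seen, had 0.6, 0.12 and 0.54 against 0.01, 0.23 and 0, and HIST1H4D, picked likewise, had 1.38, 0.81 and 1.28 against 0.48, 0.52 and 0.84. Both had overlapping groups and an adjusted p over 0.05 in that fit (limma, 0.366 and 0.295). At such levels few reads may stand behind a value.

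The level of a histone gene went with how its 3′ end is annotated. In 48 genes every annotated transcript ends at the stem-loop, 0 to 18 bases past it. In 15 genes, at least 1 annotated transcript ends more than 100 bases past the stem-loop. The genomic distance, introns included, is 430 to 37155 bases. Most of these 15 genes, though not HIST1H3H and HIST2H2BE, have annotated transcripts of more than 1 exon. Whether such transcripts contain the stem-loop was not examined. The first set had a median FPKM of 0.411, and 14 of its 48 genes (29.2%) passed the filter. The second had a median of 5.52, and 10 of 15 (66.7%) passed, among them HIST1H2AC, HIST1H2BC, HIST1H2BD, HIST1H2BJ, HIST1H4H, HIST2H2BE, HIST2H4A and HIST2H4B. Of these 15 genes, 9 have the polyadenylation hexamer AATAAA within 50 bases of the furthest annotated end, against 2 of the 48. The sets overlapped widely, since HIST1H2BK and HIST1H1C, with the highest levels of all, have only transcripts that end at the stem-loop, at 5 bases past it in HIST1H2BK. Among the tested genes, the median log2 fold change was 0.05 for those ending at the stem-loop and 0.36 for those with a further end. By sign, 8 were higher and 6 lower in the first set, of which 3 and 1 at an unadjusted p under 0.05. In the second, 9 were higher and 1 lower, of which 4 and 0 at that threshold. Of all genes tested, 52.8% were higher by sign, and 11.9% were higher and 11.7% lower at that threshold. These are descriptions with no test of the difference. The FPKM table gives 1 value per gene, so reads past the stem-loop were not told apart from reads before it.

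**Figure D4:**
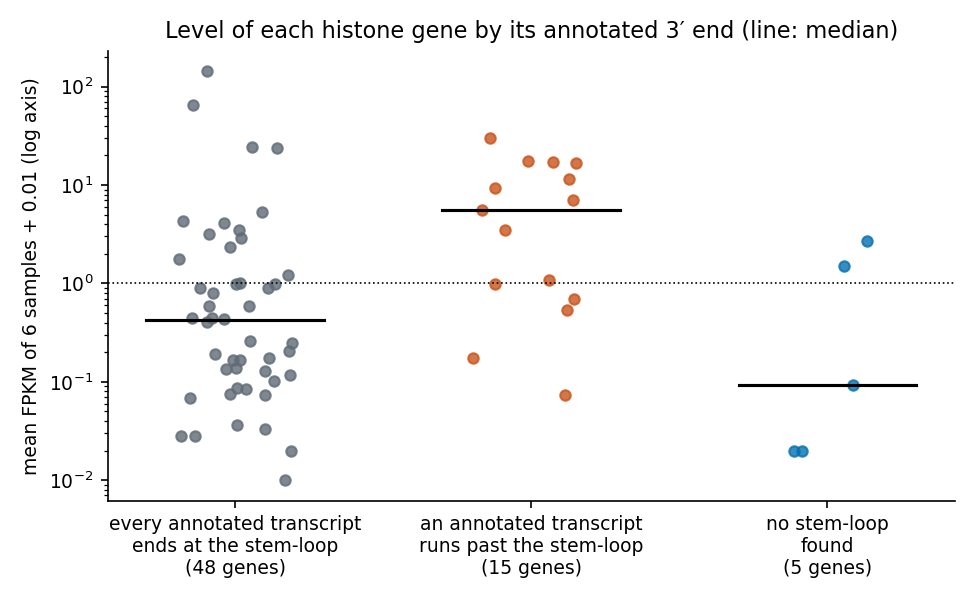
Mean FPKM of the 6 samples plus 0.01 (y axis, log scale) of each of the 68 histone genes, by what the annotation gives past the stem-loop (48, 15 and 5 genes), with a line at the median and a dotted line at the filter of 1. The set of 5 holds 2 coding genes in which no stem-loop was found and 3 pseudogenes, which were not searched. Genes with an annotated end more than 100 bases past the stem-loop have a median of 5.52. Those ending at the stem-loop have one of 0.411, and the 2 highest genes are among them.

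Position in the clusters was compared next. On chromosome 6 the genes fall in a block from 26017032 to 26285638 (32 genes, 10 tested) and a block from 27125897 to 27893891 (18 genes, 8 tested). In the first block 9 tested genes were higher and 1 was lower, with a median log2 fold change of 0.44. In the second 5 were higher and 3 lower, with a median of 0.29. All 8 genes at an unadjusted p under 0.05 lie in these blocks, 5 in the first and 3 in the second. So do 18 of the 26 tested genes. Of all genes tested, 52.8% were higher by sign, and 11.9% were higher and 11.7% lower at that threshold. The 6 tested HIST2 genes of chromosome 1 had a median of -0.11, with 2 higher and 4 lower, and none passed an unadjusted p of 0.05. All but 1 of these 6, HIST2H2BE, share at least 50% of their 50-base words with another gene. Over the whole class, the 16 tested genes below that limit had a median of 0.28 (14 higher, 2 lower), and the 10 at or above it had a median of -0.20 (4 higher, 6 lower).

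Head-to-head pairs of an H2A or H3 gene with an H2B gene gave a comparison of neighbours with a common upstream region. In 11 such pairs the start sites lie 223 to 979 bases apart, and both genes were tested in 4 pairs. In the pair of HIST1H2BC and HIST1H2AC, with start sites 246 bases apart, HIST1H2AC rose whereas HIST1H2BC had 11.2 ± 0.650 in shNC and 11.6 ± 1.80 in shPQBP1 (SD, n = 3 each; log2 fold change 0.04, limma adjusted p = 0.864). The log2 difference of HIST1H2BC over HIST1H2AC was -1.12, -0.84 and -1.34 in shNC and -1.40, -1.58 and -1.90 in shPQBP1, without overlap (two-sided exact permutation test, p = 0.1). For HIST1H2BJ over HIST1H2AG, 248 bases apart, the difference was 1.85, 2.03 and 2.23 against 2.45, 2.81 and 2.64, again without overlap (two-sided exact permutation test, p = 0.1). HIST1H2AG had 1.83 ± 0.329 and 1.68 ± 0.149 (SD, n = 3 each; log2 fold change -0.11, limma adjusted p = 0.695). The differences of HIST1H2BG over HIST1H2AE and of HIST2H2AA3 over HIST2H2BD overlapped between the groups. With 4 pairs compared and a smallest p of 0.1, none can pass a threshold of 0.05. HIST1H2BK stands 251 bases from HIST1H2AH, which had a mean FPKM of only 0.06, against 143.4 for HIST1H2BK. Other genes are annotated on the opposite strand across HIST1H2BC and across HIST1H4H, and whether the counting used strand is not given in the sources used here.

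**Figure D5:**
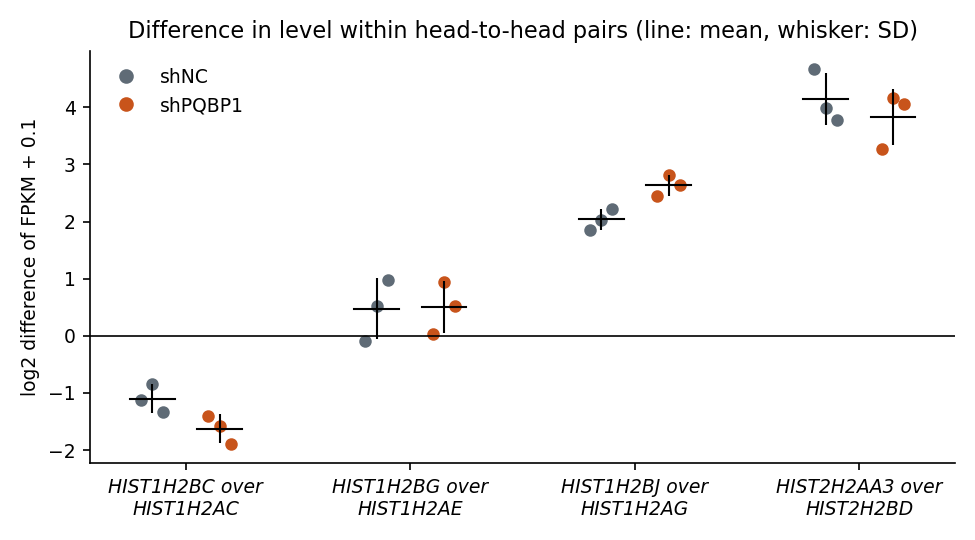
Log2 difference in level (y axis, of FPKM + 0.1) between the genes of each of the 4 head-to-head pairs in which both were tested, in shNC (grey) and the shPQBP1 samples (orange), with a line at the mean and whiskers of 1 SD. The groups are apart for HIST1H2BC over HIST1H2AC and for HIST1H2BJ over HIST1H2AG and overlap in the others.

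The promoters of HIST1H2AC and HIST1H2BK are shown because each of them covers the region between the genes of a pair whose levels differed. They run from 250 bases before to 50 bases after the RefSeq start site, 5′ to 3′ on the gene's strand (RefSeq, GRCh38.p14), with the motifs CCAAT (or ATTGG on the other strand) and TATAAA (or TTTATA) in capitals.
HIST1H2AC (chr6:26123922-26124221, plus strand): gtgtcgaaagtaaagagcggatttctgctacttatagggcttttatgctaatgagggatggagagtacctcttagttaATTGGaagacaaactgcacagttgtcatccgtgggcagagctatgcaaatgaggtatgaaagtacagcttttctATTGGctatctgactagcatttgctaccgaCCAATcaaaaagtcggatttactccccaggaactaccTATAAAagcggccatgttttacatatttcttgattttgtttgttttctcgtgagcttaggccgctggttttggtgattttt
HIST1H2BK (chr6:27146809-27147108, minus strand): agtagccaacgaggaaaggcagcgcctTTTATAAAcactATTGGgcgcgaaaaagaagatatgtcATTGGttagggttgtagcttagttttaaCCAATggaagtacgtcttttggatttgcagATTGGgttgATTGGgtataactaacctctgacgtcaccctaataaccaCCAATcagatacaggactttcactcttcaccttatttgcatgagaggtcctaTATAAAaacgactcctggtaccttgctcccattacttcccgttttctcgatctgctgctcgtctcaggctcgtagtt
The HIST1H2AC promoter holds CCAAT 3 times and TATAAA 1 time on either strand, and that of HIST1H2BK holds them 6 and 3 times, where a TATAAA and a TTTATA overlap near its start. A promoter of this length was matched for 60 of the 68 genes. These are not 60 separate sequences. HIST1H3D was matched to the same window as HIST1H2AD (26199244 to 26199543), outside the annotated HIST1H3D gene (26196784 to 26197286). Head-to-head partners such as HIST1H2AC and HIST1H2BC have windows that overlap. CCAAT was in 83.3% of the 60, against 35.7% of all 27305 promoters in the table, and TATAAA in 65.0%, against 11.95%. Among the 25 tested genes with a promoter the shares were 76% and 72%. A match of these letters describes the sequence and does not show that a factor binds there.

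The factors that transcribe and process histone mRNA were called about as often as other genes or less. Of 33 such genes, all tested, 2 were higher (6.06%, against 11.9% of all genes) and 4 lower (12.1%, against 11.7%) with an unadjusted p below 0.05, 1 passed an adjusted p (lower; 3.03%, against 2.91% in either direction), and the median log2 fold change was 0.05. SLBP, the stem-loop binding protein, had an FPKM of 34.19, 33.48 and 31.37 in shNC and 35.51, 35.51 and 35.77 in shPQBP1, a log2 fold change of only 0.11 (SE 0.07, limma adjusted p = 0.349). NPAT, the coactivator of histone gene transcription, was at 1.14, 2.89 and 2.99 against 5.08, 3.34 and 4.26, and CASP8AP2, the FLASH protein of histone locus bodies, at 0.83, 2.53 and 1.80 against 4.14, 2.33 and 3.31. Their log2 fold changes were large with wide errors (0.92, SE 0.38, and 0.97, SE 0.41), and neither passed the test (limma adjusted p = 0.212 and 0.218). In both, shNC sample 1 was the lowest and shPQBP1 sample 1 the highest of the 6, and without shNC sample 1 the log2 fold changes were 0.49 and 0.55. LSM10 and LSM11, parts of the U7 snRNP that directs the cleavage after the stem-loop, had log2 fold changes of -0.23 and 0.10, and ZNF473, a zinc finger protein of the same step, one of 0.03 (limma adjusted p = 0.400, 0.578 and 0.861).

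Cyclin E1 (CCNE1), which with CDK2 promotes entry into S phase and phosphorylates NPAT, was the gene of this list that fell, from 3.46, 3.12 and 3.65 to 1.99, 2.08 and 2.40 (log2 fold change -0.64, SE 0.12, limma adjusted p = 0.0482). The call was lost without any 1 of the 6 samples, with adjusted p-values from 0.0665 to 0.178. CPSF3, the endonuclease that cuts histone and other pre-mRNAs, was at 13.26, 16.99 and 15.95 against 20.41, 18.73 and 19.89 (log2 fold change 0.36, limma adjusted p = 0.133). TENT4B, a non-canonical poly(A) polymerase (older name PAPD5), had 1.13 ± 0.104 against 2.28 ± 0.879 (SD, n = 3 each; 0.90, limma adjusted p = 0.123), and SRRT, a partner of the cap-binding complex, 20.7 ± 2.30 against 16.1 ± 1.48 (SD, n = 3 each; -0.37, limma adjusted p = 0.137). None of these 3 passed the adjusted test. Their groups did not overlap, but they were named for a small p, which favours such groups. In this list of 33 genes, 6 were entirely higher and 5 entirely lower in shPQBP1. Of all genes tested, 17.3% and 17.1% were.

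The S phase genes, 39 of 40 tested, had 6 higher and 6 lower with an unadjusted p below 0.05 (15.4% each, against 11.9% and 11.7% of all genes) and a median log2 fold change of 0.02. Only CCNE1, which is in both lists, passed an adjusted p (2.56%, against 2.91%). TK1, a thymidine kinase, had 55.7 ± 8.49 in shNC and 42.7 ± 2.45 in shPQBP1 (SD, n = 3 each), and FEN1, the flap endonuclease of lagging strand synthesis, 116.6, 94.84 and 102.5 in shNC and 79.23, 86.74 and 83.15 in shPQBP1 (log2 fold changes -0.37 and -0.33, limma adjusted p = 0.149 and 0.118). DTL, a substrate receptor of a ubiquitin ligase active in S phase, had a log2 fold change of 0.34 (limma adjusted p = 0.207). Of the 26 histone chaperones, none passed an adjusted p, none was higher and 3 were lower at an unadjusted p under 0.05 (11.5%, close to the 11.7% of all genes; median -0.05). These 3 were SSRP1, a subunit of FACT (-0.24), TONSL, a chaperone at replication forks (-0.33), and CABIN1, a subunit of the HIRA complex (-0.33), with limma adjusted p-values of 0.134, 0.131 and 0.137.

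Among the replication-independent histone variants, the H3.3 gene H3F3B fell. Of 13 such genes, 12 were tested, with 2 higher (16.7%, against 11.9% of all genes) and 4 lower (33.3%, against 11.7%) with an unadjusted p below 0.05 and 1, H3F3B, past the adjusted test (8.33%, against 2.91%). H3F3B, which like H3F3A encodes H3.3, fell from 66.33, 75.43 and 77.17 in shNC to 25.08, 38.59 and 34.17 in shPQBP1 (log2 fold change -1.18, SE 0.17, limma adjusted p = 0.0250). Its groups were far apart, but the call was kept only without shNC sample 1 (0.0403) and lost without each of the other samples (0.0536 to 0.113). H3F3A was at 40.5 ± 1.36 and 40.6 ± 1.56 (SD, n = 3 each), with a log2 fold change of 0.00. H3F3C, an intronless relative of H3F3B with a similar sequence, was at 1.72, 1.23 and 1.40 against 0.76, 0.61 and 0.37 (-1.22, limma adjusted p = 0.0706). H1F0, the linker histone H1.0 of differentiated and resting cells, had 179.43, 152.72 and 171.49 against 233.13, 230.29 and 202.90 (0.40, SE 0.09, limma adjusted p = 0.0743). H2AFX, the H2A.X variant phosphorylated at DNA breaks, had 46.46, 37.79 and 38.11 against 30.74, 30.71 and 28.03 (-0.44, limma adjusted p = 0.0807). All the genes in this paragraph but H3F3A had groups that did not overlap. Apart from H3F3A they were named for a small p, which favours such groups. Of all genes tested, 17.3% were entirely higher and 17.1% entirely lower in shPQBP1. H3F3B and H1F0, but not H3F3C, were above the clustered genes of their class. The mean FPKM of H3F3B was 52.8, against 5.28 for HIST1H3D, the highest clustered H3 gene, and that of H1F0 was 195.0, against 65.0 for HIST1H1C.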

How the data were processed

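Short-read RNA-seq of HEY cells was used, with 3 shNC and 3 shPQBP1 samples grouped by their titles. Poly(A) RNA was purified with oligo-dT beads and sequenced in pairs. Per the labels and the study's methods, the tools the authors ran were HISAT2 (version 2.2.0) for mapping to hg38, SAMtools (version 1.9) for sorting, StringTie (version 1.3.0) for assembling and quantifying transcripts, and edgeR for their own comparison. Annotation release and strand setting are not given in the sources used here. The authors deposited FPKM per gene and sample, rounded to 2 decimals. The deposited table also holds the authors' fold changes, p-values, q-values and calls, which were not used. All 6 columns of sample values were used. Products of FPKM and length in genes with 1 transcript showed no step of whole reads, so the depth of the samples is unknown and no counting interval is given.

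FPKM was used with no scaling added. Genes that reached a mean of 1 FPKM were tested on log2(FPKM + 0.1) with limma (version 3.58.1) in R (version 4.3.3), as a two-sided moderated test with trend and no block, and with Benjamini-Hochberg adjustment over all 11413 genes. The steps were tested on simulated data. Single sums were compared with exact permutation tests of the 6 samples (Python version 3.11.15, scipy version 1.17.1). P-values rest on how far samples of 1 group differ, which may in part be technical.

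The genes and gene lists were chosen with earlier results of these data known. Named are PQBP1, the tested histone genes at an unadjusted p under 0.05 and the 8 with the highest mean, the 4 highest below the filter, 6 set processing factors, and in each list the genes at an adjusted p under 0.05 with the 4 largest fold changes at an unadjusted p under 0.05. Other genes were named for their position or shared sequence.

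Histone IDs were matched to GENCODE release 44 for 63 genes and through older symbols for 5. This release may differ from the authors' annotation. Shared sequence is the percent of the 50-base words of a gene's canonical transcript that occur in transcripts of other genes. Promoters are from RefSeq. Alternatives were median-of-ratios scaling, quantile normalization, testing each gene that was above 0 in any sample, testing only those with a mean of 10 FPKM or more, pseudocounts of 0.01 and 1, eBayes with no trend, a block on replicate numbers, leaving out single samples, and removal of the trend on GC content and length (natural splines, 5 degrees of freedom each). No protein sequences were used here.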

Additional observations from a re-analysis of the deposited data

How the results depend on the processing

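The count of 3 histone genes at an adjusted p under 0.05 was 1 when each gene above 0 in any sample was tested, 1 without a mean-variance trend, 6 after the correction for GC content and length, and 0 to 2 with a sample left out in turn (2 without shNC sample 1, 0 without each of the others). The 7 genes higher at an unadjusted p under 0.05 became 4 at a mean FPKM of at least 10, where only 9 histone genes were tested. The 1 lower gene became 4 with every gene above 0, 0 at a mean FPKM of at least 10, 0 after the GC correction, and 0 to 3 with a sample left out (3 without shNC sample 2). Genes over a fold change of 2 were 2 with every gene above 0, and 0 to 1 with a sample left out (1 without shNC sample 3 or shPQBP1 sample 3). The median log2 fold change of 0.19 was 0.44 at a mean FPKM of at least 10 and 0.40 after the GC correction, and stayed above the median of all genes in every alternative run. For the counts, the share of all genes called in each alternative is not given here.

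With the replicate number as a block, no histone gene passed an adjusted p in limma, while 7 rose and 0 fell by the unadjusted p, and PQBP1 kept its log2 fold change of -2.04 at an adjusted p of 0.0686. H3F3B and CCNE1 lost their calls too (adjusted p = 0.134 and 0.215). Samples of the same number did not deviate together (correlations of -0.186, -0.138 and -0.0114), so the numbers were not taken as pairs. The cause of these changes was not tested.

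HIST2H4A lay between -0.17 and 0.15 with a sample left out (-0.17 without shNC sample 2), and ZNF473 was at -0.035 under quantile normalization and between -0.012 and 0.075 with a sample left out (-0.012 without shPQBP1 sample 2). Over the 12 histone genes with values in every sample, 148 alternative values kept direction and call, 23 lost the call, 4 gained it and 1 reversed. Most of the 148 belong to genes that had no call to lose. The 3 genes with a call, HIST1H2BD, HIST1H2AC and HIST1H1C, kept it in 9, 6 and 7 of 15 alternatives each. Counts at an unadjusted p under 0.05 in the gene lists ranged, over all alternatives, from 1 to 8 higher and 1 to 4 lower for the transcription and processing factors, 1 to 2 and 2 to 5 for the variants, 0 to 3 and 0 to 4 for the chaperones, and 2 to 8 and 2 to 7 for the S phase genes. With 3 samples a group and unknown depth, the values of genes under an FPKM of 1 are the least certain.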
